A study of Homo sapiens with 4 samples.

Results

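Vimentin (VIM), nestin (NES), synemin (SYNM) and the nuclear lamins LMNA, LMNB1 and LMNB2 make up the non-keratin intermediate filament genes described here. They were picked out by gene symbol, with no threshold on a measured value, and all 6 members were found among the 60623 genes of the count tables. The RNA-seq data came from BICR10, an established head and neck cancer cell line, carrying by lentivirus either a control hairpin (shControl, 2 libraries) or a hairpin against the histone reader gene YEATS2 (shYEATS2, 2 libraries), and both groups share the transduction and the puromycin selection. The study lists more than 1 YEATS2 hairpin, and which of them each shYEATS2 library carried is not given in the sources used here. The study describes its replicates in general as biological, but neither the labels nor its methods say how the libraries of a group were separated, so the p-values measure the spread between these libraries.

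Intermediate filaments are rope-like polymers of coiled-coil proteins that give cells and nuclei their mechanical strength. Vimentin is the filament of mesenchymal cells and the classical protein marker of epithelial-to-mesenchymal transition, whereas keratins are the filaments of epithelia. Nestin and synemin are large proteins that do not form filaments well alone and join those built by vimentin or desmin. Lamins form the meshwork under the inner nuclear membrane, where A-type lamins are associated with nuclear stiffness and B-type lamins are present in nearly all cells.

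The lamin proteins differ in how they end, which matters for reading the count of LMNA. Prelamin A and both B-type lamins end in a CaaX box, a cysteine followed by 3 residues, to which a farnesyl group is attached, whereas lamin C, made from LMNA by a different splice of the last exons, has no such box. The last 30 coding bases of lamin A, lamin B1 and lamin B2, stop codon included, were taken from the reference transcripts of GENCODE on GRCh38 and are shown 5′ to 3′ with the cysteine codon of the CaaX box in capitals, since they show the box that the enzymes described further on act on.
Lamin A: cagagcccccagaacTGCagcatcatgtaa
Lamin B1: gcatccaatagaagcTGTgcaattatgtaa
Lamin B2: accacctcaagaggcTGCtacgtgatgtga
The reading frames encode 664 residues for prelamin A, 586 for lamin B1 and 620 for lamin B2. The lamin B1 end lies at chr5:126836235-126836264 on the plus strand and the lamin B2 end at chr19:2430911-2430940 on the minus strand, while the lamin A end is split over a pair of exons between 156138755 and 156139106 on chromosome 1. The count of LMNA adds the transcripts of lamin A and lamin C, so a change in their proportion cannot be read from it.

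The level of the targeted gene was checked first. YEATS2 stood at 66.1 and 66.7 CPM in the shControl libraries against 29.2 and 29.1 CPM in the shYEATS2 libraries, where CPM are counts scaled to a common library size with TMM factors. Its log2 fold change, shYEATS2 over shControl, was −1.19 ± 0.08 (adjusted p = 3.6e-21), so the labels of the groups held for it in all 4 libraries. Fold changes are given as the estimate ± its standard error (SE), and each adjusted p is from edgeR unless another tool is named. Library totals ran from 11334133 to 47297970 counts, and both shYEATS2 libraries were shallower than both shControl libraries, so that depth and knockdown are confounded by design. After all libraries were thinned to the smallest total, 4 members were still called lower and 1 higher. Markers of the labelled cell type were mostly low. Of 10 squamous epithelial markers, TP63 and KRT17 were under 1 CPM in every library, E-cadherin (CDH1) went from 0.335 ± 0.025 to 2.48 ± 0.510 CPM (SD, n = 2 each), TRIM29 fell by 1.36 on the log2 scale, and SFN was the most abundant, with no call (adjusted p = 0.854). Of the 8 squamous markers tested, 5 were lower and 1 was higher, against 23.6% and 22.6% of all genes tested. The deepest falls were those of KRT5, from 15.7 to 1.19 CPM, DSC3, from 8.77 to 1.10 CPM, and KRT14, from 1.21 to 0.223 CPM. Some fibroblast markers were abundant, and the summed level over 10 genes was 7231 to 7322 CPM in shControl and 2237 to 2377 CPM in shYEATS2. Most of this sum came from COL1A1, COL1A2 and COL3A1, and LUM and DCN averaged 455 and 321 CPM in shControl. PDGFRA, FAP, PDGFRB and PDPN averaged 2.73, 13.3, 17.7 and 19.3 CPM in shControl, and THY1 was under 1 CPM in every library.

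Of the 6 members, 4 were lower in shYEATS2 and 1 was higher by the quasi-likelihood test of edgeR, at a threshold of 0.05 on p-values adjusted over all 17058 genes tested. All 6 passed the filter on low counts. Among all genes tested, 23.6% were lower and 22.6% were higher, and the counts for each list of genes are to be read beside these shares. VIM rose slightly, SYNM, LMNA, LMNB1 and LMNB2 fell, and NES was too low for a call in either direction. The median log2 fold change of the 6 members was −0.18, against −0.01 for all genes tested. No member changed by 2-fold or more among those called. As these are bulk RNA samples, fewer cells with a transcript and less transcript in each cell cannot be told apart.

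**Figure D1:**
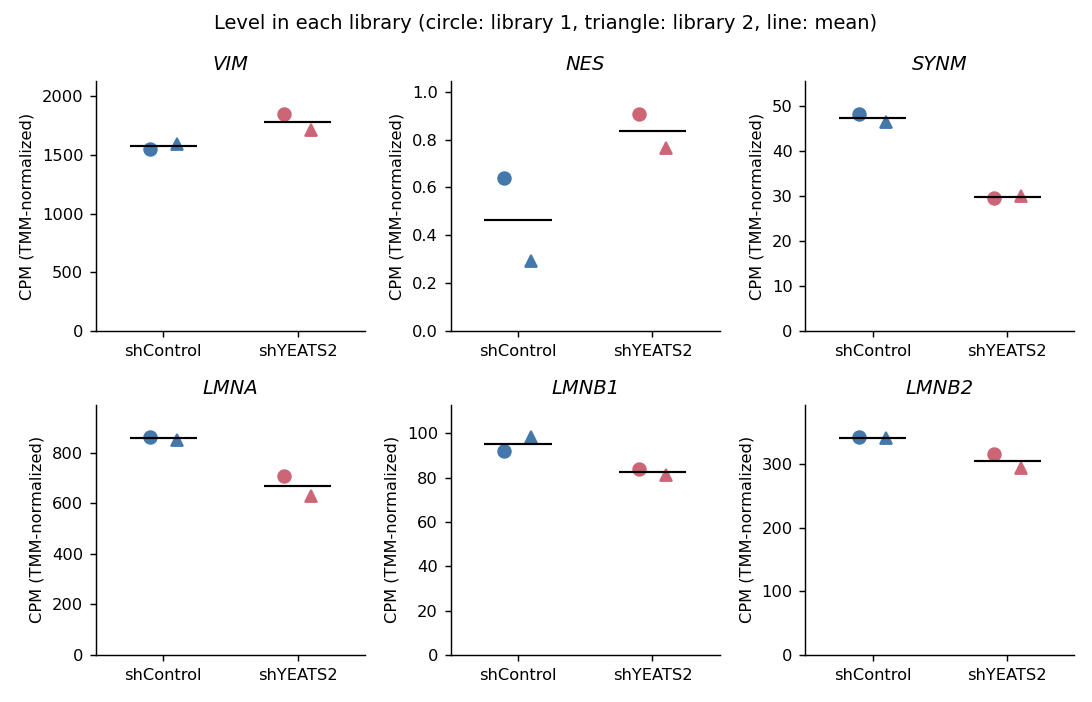
TMM-normalized CPM of each member in the 4 libraries, on linear axes that start at 0, with a panel for each gene. Circles are library 1, triangles library 2 and black lines the mean of 2 libraries. Both shYEATS2 libraries lie above both shControl libraries for VIM and NES and below both for SYNM, LMNA, LMNB1 and LMNB2. With 2 libraries against 2, such separation has a two-sided p of 0.333 in an exact permutation, so it is weak evidence alone. The share of all genes that separate is not given here.

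VIM (ENSG00000026025; GRCh38 chromosome 10, 17228241 to 17237593, plus strand) had 70311 and 60162 counts in shControl 1 and 2 and 46872 and 20217 counts in shYEATS2 1 and 2. These counts gave levels of 1550 and 1592 CPM for shControl against 1850 and 1715 CPM for shYEATS2. Both shYEATS2 libraries were above both shControl libraries, although the gap from the higher shControl library to the lower shYEATS2 library was smaller than the gap between the shYEATS2 libraries. The mean went from 1571 ± 29.7 to 1783 ± 95.3 CPM (SD, n = 2 each). The log2 fold change was 0.18 ± 0.06 (95% confidence interval 0.07 to 0.30, adjusted p = 0.0080), so that VIM mRNA stood at 114% of its control level. The call was lost without shControl 1 (log2 fold change 0.16, adjusted p = 0.186), without shControl 2 (0.19, adjusted p = 0.0898), without shYEATS2 1 (0.11, adjusted p = 0.0778) and with no filter on low counts (0.13, adjusted p = 0.0934). With library totals alone the log2 fold change was 0.32. Only mRNA was counted here, whereas the study reported less Vimentin protein on immunoblots of BICR10 and SCC9 cells after YEATS2 knockdown.

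The antisense gene VIM-AS1, a long noncoding RNA whose exons share 656 bases with those of VIM on the opposite strand, also rose. It was counted 695 and 506 times in shControl and 464 and 220 times in shYEATS2, which gave a log2 fold change of 0.36 ± 0.11 (adjusted p = 0.00351). Its counts equalled 0.841% to 1.09% of those of VIM in the same library. A further antisense gene at the locus, AL133415.1, with 619 shared bases, had a log2 fold change of 0.24 and did not pass the test (adjusted p = 0.111). Together, exons on the opposite strand cover 24.6% of the exonic bases of VIM. The strand setting of the counting is not given in the sources used here, and without it reads from the shared bases cannot be assigned to either strand.

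NES (ENSG00000132688; chromosome 1, 156668763 to 156677407, minus strand) was close to the limit of detection, with 29 and 11 counts in shControl and 23 and 9 counts in shYEATS2. These correspond to 0.639 and 0.291 CPM against 0.908 and 0.764 CPM. The groups did not overlap, which has a two-sided p of 0.333 in an exact permutation of 2 libraries against 2. The log2 fold change of 0.84 ± 0.46 did not pass the test (adjusted p = 0.134). The 95% confidence interval, from −0.09 to 1.77, held both a small fall and a rise of more than 3-fold, so a change of NES was not resolvable at this depth. Leaving out 1 library at a time moved the value between 0.41, without shControl 2, and 1.53, without shControl 1.

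SYNM (ENSG00000182253; chromosome 15, 99098217 to 99135593, plus strand) had the largest fall among the 6 members. It was counted 2188 and 1757 times in shControl and 749 and 354 times in shYEATS2. In CPM, shControl was at 48.2 and 46.5 and shYEATS2 at 29.6 and 30.04. The libraries of each group were close to each other, and the groups were far apart against that spread. The log2 fold change was −0.67 ± 0.08 (95% confidence interval −0.83 to −0.51, adjusted p = 1.35e-10), which left 62.8% of the control level. SYNM stood at percentile 9.54 of the log2 fold changes of all genes tested. The fall kept its call in each fit without 1 library, with values from −0.70 to −0.65, and with library totals alone it was −0.54. Antisense exons cover 27.8% of its exonic bases, mainly those of AC036108.2, which had 8 to 30 counts per library.

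LMNA (ENSG00000160789; chromosome 1, 156082573 to 156140081, plus strand) was counted 39054 and 32208 times in shControl and 17936 and 7403 times in shYEATS2. In CPM, these were 861 and 852 for shControl and 708 and 628 for shYEATS2. The shControl libraries were nearly equal, while the shYEATS2 libraries differed by 0.17 on the log2 scale. The log2 fold change was −0.36 ± 0.06 (95% confidence interval −0.48 to −0.24, adjusted p = 6.84e-07), which left 78.1% of the control level. It was −0.46 without shYEATS2 1 and −0.28 without shYEATS2 2, called lower in both fits. With library totals alone it was −0.22 and still called (adjusted p = 0.00355). MEX3A, an RNA-binding protein gene read in the opposite direction whose start lies 108 bases from that of LMNA, was higher in shYEATS2, at 0.45 ± 0.17 (adjusted p = 0.0235).

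LMNB1 (ENSG00000113368; chromosome 5, 126776623 to 126837020, plus strand) was the less abundant of the B-type lamin genes. It had 4177 and 3708 counts in shControl and 2128 and 954 in shYEATS2. Its CPM were 92.1 and 98.1 for shControl against 84.0 and 80.9 for shYEATS2, with no overlap. The log2 fold change was −0.20 ± 0.07 (95% confidence interval −0.34 to −0.07, adjusted p = 0.00963). LMNB1 lost its call without shControl 2 (−0.16, adjusted p = 0.202) and with library totals alone (−0.07, adjusted p = 0.403).

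LMNB2 (ENSG00000176619; chromosome 19, 2427638 to 2456959, minus strand) encodes the other B-type lamin and was the more abundant. It had 15490 and 12849 counts in shControl and 7991 and 3456 in shYEATS2. Its CPM were 341 and 340.02 for shControl against 315 and 293 for shYEATS2, again without overlap. The log2 fold change was −0.16 ± 0.06 (95% confidence interval −0.28 to −0.04, adjusted p = 0.0201). It lost its call without shControl 1 (−0.16, adjusted p = 0.137), without shControl 2 (−0.17, adjusted p = 0.111), without shYEATS2 2 (−0.12, adjusted p = 0.0715) and with library totals alone (−0.03, adjusted p = 0.729).

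The changes of VIM and of the B-type lamins were of the same order as the effect of the scaling. Scaling by library totals shifted the median over all genes tested by 0.13 on the log2 scale, and the values of the members moved with it. A change of scaling shifts all genes by about the same amount, so agreement between scalings after subtracting the median is no test. Measured against the median gene, the log2 fold changes were nearly the same under TMM, DESeq2's size factors, upper quartiles and library totals. They were 0.19 for VIM, −0.66 for SYNM, −0.35 for LMNA, −0.19 for LMNB1, −0.15 for LMNB2 and 0.85 for NES under each of these scalings. No member changed sign under any of the scalings.

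**Figure D2:**
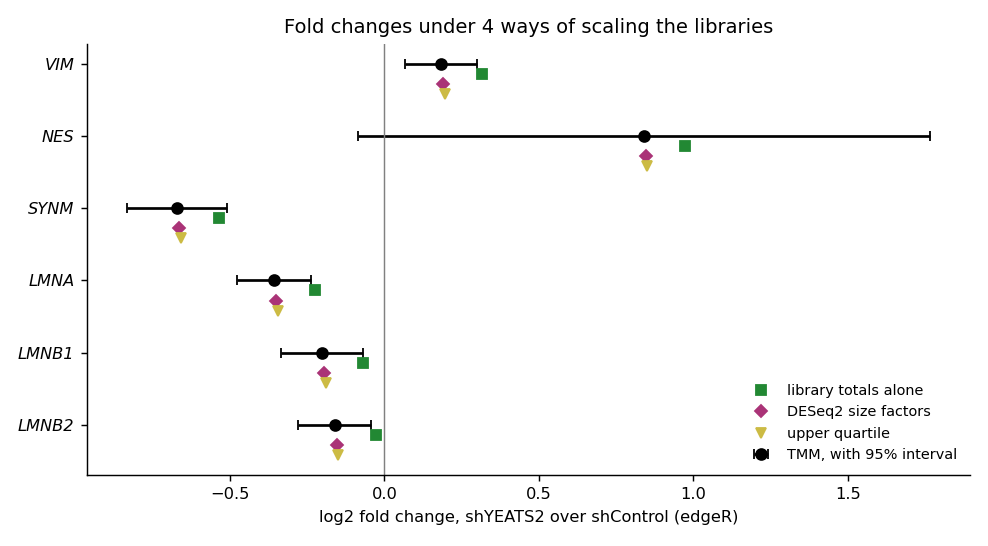
Log2 fold change of each member, shYEATS2 over shControl, under TMM (black circles, with 95% confidence intervals from edgeR's quasi-likelihood fit), library totals alone (green squares), DESeq2's size factors (purple diamonds) and upper quartiles (yellow triangles). Library totals move every member to the right by about the same distance, which brings LMNB1 and LMNB2 to −0.07 and −0.03, and the interval of NES is the widest.

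The order of the members was the same in both groups when the level was expressed as CPM per kilobase of exonic sequence, the scale on which genes can be compared. In shControl, VIM stood at 304 CPM per kilobase, LMNA at 105, LMNB2 at 63.2, LMNB1 at 26.2, SYNM at 6.09 and NES at 0.0836. In shYEATS2 the corresponding levels were 344, 82.1, 56.4, 22.7, 3.83 and 0.150 CPM per kilobase. No neighbours in this order overlapped in any library. VIM ranked 80th of 16990 tested genes with an annotated length in shControl on this scale, LMNA 312th, LMNB2 558th and LMNB1 1516th. The exonic length, 8141 bases for LMNA and 5176 for VIM, is the union over all annotated transcripts, which lowers the value of a gene that uses only some of its exons.

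Ratios within a library do not depend on how the libraries were scaled. Their size does depend on the exonic lengths, 8141 bases for LMNA, 3633 for LMNB1 and 5395 for LMNB2. As each length is a union over all annotated transcripts, a ratio near 1 does not show equal transcript numbers. The ratio of LMNA to the sum of LMNB1 and LMNB2, all per kilobase, was 1.19 and 1.16 in shControl and 1.07 and 1.01 in shYEATS2. A-type lamin mRNA was thus lower relative to B-type lamin mRNA in both shYEATS2 libraries. The ratio of LMNB2 to LMNB1 was 2.42 ± 0.116 (SD, n = 2) in shControl and 2.48 ± 0.063 (SD, n = 2) in shYEATS2, and the groups overlapped. The ratio of VIM to LMNA rose from 2.88 ± 0.075 to 4.203 ± 0.131 (SD, n = 2 each) without overlap. VIM stood at 49.8 ± 2.24 times the level of its partner SYNM in shControl and at 89.9 ± 5.81 times in shYEATS2 (SD, n = 2 each), also without overlap. These ratios are given without a test, since an exact permutation of 2 libraries against 2 yields 0.333 as its smallest p (two-sided).

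**Figure D3:**
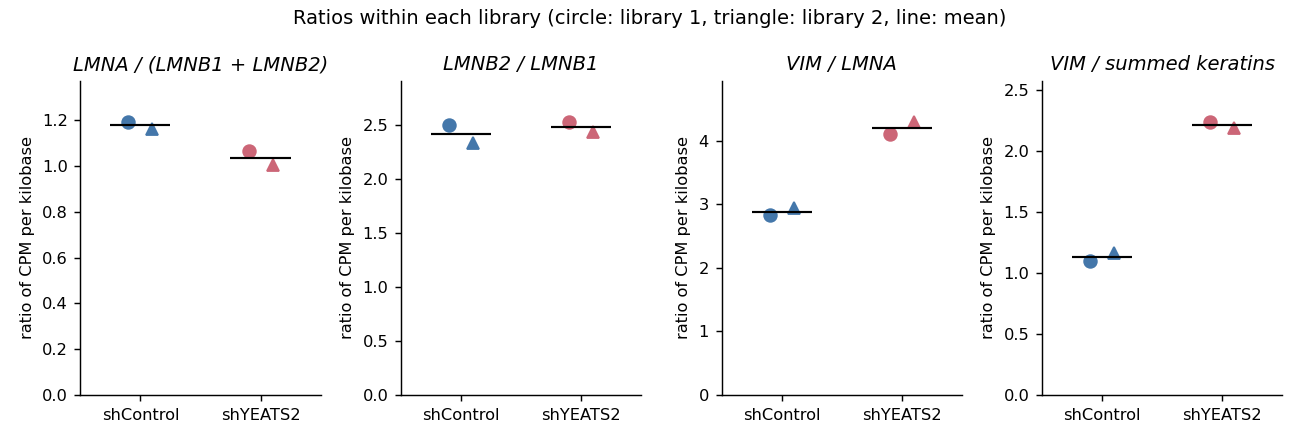
Ratios of CPM per kilobase within each library, on linear axes that start at 0, for LMNA over the sum of LMNB1 and LMNB2, LMNB2 over LMNB1, VIM over LMNA and VIM over the sum of all keratin genes. Circles are library 1, triangles library 2 and lines the means. The groups overlap only for LMNB2 over LMNB1, and VIM over keratins goes from 1.13 to 2.21.

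Most other non-keratin filament genes were not expressed. Of the 10 genes in this list, 7 were under 1 CPM in every library and were not tested: the muscle filament gene DES with 1 count in all, the glial GFAP with at most 7 counts, the neuronal PRPH with at most 7, INA with 1 count in all, NEFH with 1 count in all, NEFM with at most 16 and the lens gene BFSP2 with at most 2. NEFL, the light neurofilament subunit, fell from 36.3 ± 0.800 to 9.10 ± 0.811 CPM (means ± SD over both libraries), or −2.02 ± 0.10 on the log2 scale (adjusted p = 2.05e-26). BFSP1, the lens beaded filament protein filensin, rose from 4.64 ± 0.172 to 7.65 ± 0.854 CPM (means ± SD over both libraries), or 0.74 ± 0.16 on the log2 scale (adjusted p = 5.00e-05). SYNC (syncoilin) did not pass the test (log2 fold change 0.09, adjusted p = 0.564). NEFL and BFSP1 kept their calls in each fit without 1 library.

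Keratins, the other large family of intermediate filaments, are given for comparison. Of 55 keratin genes in the files 15 passed the filter, with a median log2 fold change of −0.79. In shYEATS2 10 were called lower and 4 higher, against 23.6% and 22.6% of all genes tested. KRT8 and KRT18, the keratin pair of simple epithelia, had log2 fold changes of −1.16 and −0.55, and KRT81 and KRT6A were at −0.79 and −5.09, each called lower. Reads of close paralogs such as KRT6A, KRT6B and KRT6C, or KRT81 and KRT86, can be shared or discarded in counting, which makes single keratin values uncertain. The summed keratin level was 265 to 274 CPM per kilobase in shControl and 152 to 160 in shYEATS2. VIM was therefore at 1.13 ± 0.047 times the summed keratins in shControl and at 2.21 ± 0.035 times in shYEATS2 (SD, n = 2 each). As the ranges of the keratins show, this ratio moved more with the fall of the keratin mRNAs than with the rise of VIM, from 304 to 344 CPM per kilobase. KRT81, one of the uncertain values, held 126 CPM per kilobase of the sum in shControl and 72.7 in shYEATS2 (means).

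In lamin processing 1 gene was lower and 2 were higher, too few to differ clearly from the shares over all genes tested, 23.6% and 22.6%. Of 6 genes of lamin processing, ICMT, which methylates the processed cysteine, fell from 197 ± 0.034 to 147 ± 1.77 CPM (means ± SD over both libraries), or −0.42 ± 0.06 on the log2 scale (adjusted p = 2.47e-08), and kept its call in each fit without 1 library. FNTA, a subunit of the farnesyl-adding enzyme, and NARF, which binds prelamin A, were called higher with log2 fold changes of 0.20 and 0.23. FNTA lost its call without shControl 1, without shControl 2 and without shYEATS2 2, NARF lost its call without shControl 2 and without shYEATS2 1, and neither was called by DESeq2. ZMPSTE24, the protease that cuts prelamin A, was at −0.07 (adjusted p = 0.369) and was called only without shYEATS2 2. RCE1 and FNTB were at −0.17 (adjusted p = 0.207) and −0.13 (adjusted p = 0.648).

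Of 10 genes for partners of the lamina at the inner nuclear membrane, 6 were lower and 1 was higher, with a median log2 fold change of −0.21. Among all genes tested, 23.6% were lower and 22.6% higher. TOR1AIP1, which encodes the lamin-binding protein LAP1, fell most, from 76.6 to 48.8 CPM, a log2 fold change of −0.65 ± 0.07 (adjusted p = 5.17e-12). LEMD3 (MAN1) and BANF1, the chromatin-bridging factor that binds LEM-domain proteins, were lower, at −0.39 and −0.34 on the log2 scale. ANKLE2, LBR and EMD (emerin) were lower, at −0.24, −0.21 and −0.20. LEMD2, TOR1A and PRR14 were not called. TMPO, which encodes the LAP2 proteins, rose by 0.29 and lost its call without shControl 1. Only 4 genes were lower with DESeq2 and after thinning, where LBR and EMD were not called, as well as without shControl 1, where ANKLE2 and EMD were not called, and without shControl 2, where LBR and EMD were not called. With library totals alone 3 of the 10 genes were lower and 2 higher, as ANKLE2, LBR and EMD were no longer called and LEMD2 was called higher. Without shYEATS2 2, 2 genes were called higher.

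In the LINC complex, which couples the lamina to the cytoskeleton, 3 of 5 tested genes were lower and 1 was higher. The shares over all genes tested were 23.6% and 22.6%. SYNE2 and SYNE1, which encode the giant nesprins, were lower, at −0.59 ± 0.06 and −0.50 ± 0.07 on the log2 scale. SUN1, the inner membrane partner that binds lamin A, fell by 0.23 and lost its call without shControl 2 and with library totals alone. SUN2 was at −0.05 (adjusted p = 0.538). SYNE3, which encodes the nesprin that binds plectin, rose by 0.37, and its call was lost without shControl 1 and without shYEATS2 1.

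Of 11 tested genes of plakins and other linkers to filaments, 5 were lower and 4 were higher, against 23.6% and 22.6% of all genes tested. Plectin (PLEC), the main linker of vimentin to other structures, fell from 920 ± 27.0 to 749 ± 49.2 CPM (means ± SD over both libraries), or −0.30 ± 0.06 on the log2 scale (adjusted p = 2.21e-05). FLNA, an actin crosslinker that binds vimentin, fell by 0.29. Periplakin (PPL) and desmoplakin (DSP), linkers of the epithelial cell surface, were lower, at −0.86 and −1.97 on the log2 scale, and DST and MACF1 were not called. Of the proteins that synemin is known to bind, dystrophin (DMD) rose from 4.02 ± 0.111 to 17.1 ± 1.27 CPM (means ± SD over both libraries), or 2.10 ± 0.13 on the log2 scale, and utrophin (UTRN) rose by 0.50. EVPL (envoplakin), with 10 to 26 counts per library, was called higher at 1.11 ± 0.45 (adjusted p = 0.0377), a call lost in 3 of the 4 fits that leave out a library. DTNA, which encodes another synemin partner, alpha-dystrobrevin, fell by 0.42 and was not called by DESeq2 or with library totals alone.

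Most genes for kinases that phosphorylate filaments, and for their activators, were higher. Of these 12 genes, 7 were higher and 1 was lower, against 22.6% and 23.6% of all genes tested. Their median log2 fold change was 0.32. PLK1, PAK2, PRKCE and ROCK2, each reported to phosphorylate vimentin, rose by 0.67, 0.60, 0.53 and 0.52, and CCNB1, which encodes the cyclin partner of CDK1, and the kinase gene AURKB rose by 0.50 and 0.40. CDK1, the mitotic kinase that phosphorylates lamins, was at 118 ± 2.75 CPM in shControl against 119 ± 1.74 CPM in shYEATS2 (SD, n = 2 each; edgeR's adjusted p = 0.979). CDK5R1, an activator of CDK5, fell by 0.49, and CDK5 itself was at −0.23 (adjusted p = 0.0905) and was called without shYEATS2 1, which made 2 genes lower. Without shYEATS2 2, ROCK1 was called lower, also making 2, and PAK1 was called in no fit run. PRKCA rose by 0.24 and lost its call without shControl 1.

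**Figure D4:**
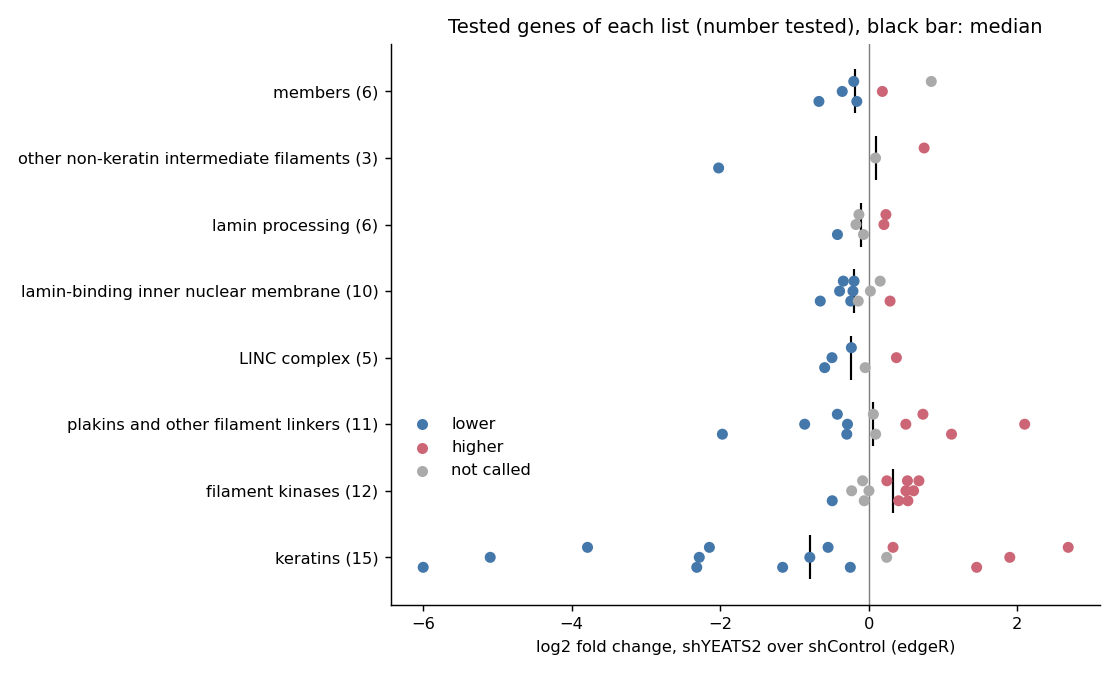
Log2 fold change of each tested gene, shYEATS2 over shControl, for the members and 7 lists of related genes, with the number tested after each name. Blue points were called lower, red points higher and grey points neither, and black bars are medians. The keratins have a median of −0.79, and the genes of the kinase list, activators included, lie mostly to the right of 0, with a median of 0.32.

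Fibroblasts express VIM strongly, and most fibroblast markers tested were lower in shYEATS2. Of 9 tested fibroblast markers 8 were lower and 0 were higher, against 23.6% and 22.6% of all genes tested. Their median log2 fold change was −1.65. COL1A1 fell from 2796 ± 69.0 to 891 ± 51.2 CPM (SD, n = 2 each), and COL1A2, COL3A1 and DCN had log2 fold changes of −1.67, −2.14 and −1.94, each called lower. Among markers of other cell types, the defining endothelial gene CDH5 was under 1 CPM in every library, as were all 6 leukocyte markers, with sums of at most 0.848 CPM, and all 6 muscle markers, with sums of at most 0.750 CPM. The summed level of 8 endothelial markers was 44.3 to 45.5 CPM in shControl and 23.3 to 25.1 CPM in shYEATS2, mostly KDR, which had a log2 fold change of −1.004 and was called lower. Of the 4 endothelial markers tested, ERG was also called lower, at −0.94, and PECAM1 was not called. TEK, with 4 to 9 counts per library, was called higher, at 1.83 (adjusted p = 0.0290). The summed level of 6 neural and glial markers was 3.97 to 4.34 CPM in shControl and 1.19 to 1.82 CPM in shYEATS2. Their part in the levels of VIM, SYNM and the lamins was not tested.

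The stretches before the start sites of the member that rose and of the member that fell most are shown as reference, from RefSeq on GRCh38.p14, 5′ to 3′ on the strand of the gene, with GC boxes in capitals. A GC box was searched as the 6 letters GGGCGG on both strands, a motif known to be bound by SP1, and boxes that overlap were each counted. The windows are the 250 bases before the start, chr10:17227991-17228240 on the plus strand for VIM and chr15:99104830-99105079 on the plus strand for SYNM. The RefSeq start of SYNM lies inside the gene as GENCODE draws it, so its window is not upstream of the first GENCODE start.
VIM: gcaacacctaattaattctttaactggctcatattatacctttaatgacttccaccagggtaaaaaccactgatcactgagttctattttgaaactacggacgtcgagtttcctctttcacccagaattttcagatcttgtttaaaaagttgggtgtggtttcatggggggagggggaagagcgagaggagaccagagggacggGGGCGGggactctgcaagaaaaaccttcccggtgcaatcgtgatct
SYNM: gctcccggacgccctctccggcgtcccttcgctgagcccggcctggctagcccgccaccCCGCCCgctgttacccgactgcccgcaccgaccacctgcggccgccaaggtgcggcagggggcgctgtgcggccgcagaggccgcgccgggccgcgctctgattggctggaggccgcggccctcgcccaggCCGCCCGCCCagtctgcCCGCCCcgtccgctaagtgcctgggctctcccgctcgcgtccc
The VIM window held 1 GC box and 8 CpG dinucleotides at a GC content of 46%, and the SYNM window held 4 GC boxes, a pair of which overlap, and 34 CpG dinucleotides at 78.8%. Of the other members, NES had 2 boxes, LMNB2 had 1, the 3 annotated starts of LMNA had 1, 1 and 2, and the starts of LMNB1 had 0 and 4. Over 35116 promoter windows of the same length, 42.6% held at least 1 box and 24.3% held 2 or more. Their medians were 11 CpG dinucleotides and a GC content of 58%. At least as many CpG dinucleotides as in the VIM window were held by 56.3% of windows, and as in the SYNM window by 6.84%. Any other start of VIM or SYNM was not examined. These matches describe the sequence, and no binding was measured here.

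The genes most like each member were found by the distance between log2 CPM values over the 4 libraries, each centred on the mean of its gene, among the 9364 other tested genes that averaged 10 CPM or more. As this distance includes the difference between groups, similar fold changes of the nearest genes were built in. VIM was closest to STX5 (distance 0.01 on the log2 scale), with a log2 fold change of 0.19, and to C9orf64, with 0.19. SYNM was closest to SRRT, at −0.68, and AXIN2, at −0.67. LMNA was closest to CROCC and MTFR1L, both at −0.34, and LMNB1 to DMPK and KIAA1841, both at −0.20. LMNB2 was closest to DCAKD and CYBC1, at −0.16 and −0.17. C9orf64, KIAA1841, DCAKD and CYBC1 were not called (adjusted p = 0.108, 0.102, 0.0887 and 0.0589). The nearest to NES were VPS13B-DT and ASPHD1, at distances of 0.52 and 0.53, and 2965 genes lay within 2 times the smaller distance.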

How the data were processed

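The authors aligned reads of 2 shControl and 2 shYEATS2 libraries of BICR10 cells, made with a stranded mRNA kit, to GRCh38 (STAR), HTSeq assigned them to genes, and the deposited values are raw counts per gene. Tool settings, strand included, are not given in the sources used here. Reads given to no gene (15.3% to 16.5% of the tally) were left out. GENCODE 44 gave positions and lengths, with 60295 of 60623 identifiers found.

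The 17058 genes passing filterByExpr were scaled by TMM and tested with edgeR 4.0.16 (quasi-likelihood, robust; R 4.3.3), with Benjamini-Hochberg adjustment over all genes tested, a threshold of 0.05 and no minimum fold. The standard error is the log2 fold change over the root of F. Alternatives were DESeq2 1.42.0 (the tool of the study), limma-voom 3.58.1, the edgeR likelihood ratio test, other scalings, filters and thresholds, a replicate block, thinning to 11334133 counts and leaving out each library. The fits were tested on simulated data. Libraries of a group differed by more than sampling noise (chi-square per degree of freedom 6.43 and 6.11).

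Members were matched by symbol alone, but the choice of which genes to make members, and of the lists, was made with earlier results of these data known. Named genes are the members, YEATS2, all other non-keratin filament genes, the 4 called genes per list that changed most and averaged 10 CPM or more, genes overlapping a member or starting within 1000 bases of it, and the 2 nearest genes per member. Other genes were named after their values were seen: the rest of the processing, lamina, LINC, linker and kinase lists, and CDH1, TP63, KRT5, KRT14, KRT17, DSC3, SFN, CDH5, ERG, PECAM1, TEK, LUM, PDGFRA, PDGFRB, FAP, PDPN and THY1. A called gene of the linker list and a sequence are not reported here.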

Additional observations from a re-analysis of the deposited data

How the results depend on the processing

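SYNM and LMNA kept their call under each alternative except a required 2-fold change, NES was never called, and neither the members nor YEATS2 changed sign, while some list genes without a call, among them ZMPSTE24, ROCK1, SUN2, PRR14, FNTB, CDK1, PAK1 and SFN, crossed 0 under at least 1 alternative. A required 2-fold change left 0 members lower and 0 higher (log2 fold changes 0.18 for VIM, −0.67 for SYNM, −0.36 for LMNA, −0.20 for LMNB1 and −0.16 for LMNB2), 631 genes lower and 1022 higher in all, 1 linker lower and 2 higher, 7 markers of other cell types lower, and 0 calls in both directions for lamin processing, inner nuclear membrane, LINC complex and the kinase list (which holds activators too), with 0 other non-keratin filaments higher. At an adjusted p under 0.01, LMNB2 (−0.16) was not called. Library totals alone gave 2567 genes lower and 5441 higher (67.9% of calls higher, against 49.0%), LMNB1 at −0.068, LMNB2 at −0.027, 2 members lower, and 3 inner nuclear membrane genes lower with 2 higher. With no filter, 41.5% of calls were higher, VIM was at 0.13 and 0 members were higher. DESeq2 called 2949 genes lower and 2820 higher. Lamin processing genes called higher numbered 0 with no filter, with DESeq2 and at an adjusted p under 0.01, and 1 after thinning. Genes of the kinase list called lower numbered 2 with no filter, with the replicate block and after thinning. Of 16 tested markers of other cell types, 11 were lower and 1 (TEK) was higher by edgeR's quasi-likelihood test, against 23.6% and 22.6% of all genes tested. The number called higher was 0 with no filter, with at least 10 counts in every library, with DESeq2, after thinning and at an adjusted p under 0.01. The cause of these changes was not tested.

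Leaving out 1 library at a time, with the lone library of an arm assumed to vary like the other arm, gave 0.11 to 0.23 for VIM, −0.25 to −0.16 for LMNB1 and −0.23 to −0.12 for LMNB2, with 2 to 4 members lower and 0 to 1 higher. It gave 1 to 2 lamin processing genes lower and 0 to 1 higher, 0 to 2 inner nuclear membrane genes higher, 0 to 1 LINC genes higher, 1 to 2 genes of the kinase list lower and 0 markers of other cell types higher.

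The replicate numbers are shared by the groups only as numbers, and the deviations of same-numbered libraries had a correlation of −0.018. With the replicate as a block, VIM was at 0.18 (adjusted p = 0.00167 from edgeR), 4142 genes were lower and 3870 higher, and the calls of the 6 members were as without it.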
